A study of Mus musculus with 16 samples.

Results

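The genes described here are those named for the mouse histone clusters. They were taken as every row of the count table whose symbol begins with Hist1h, Hist2h, Hist3h or Hist4h and does not end in -ps. The rule found 69 of the 53372 genes in the table and left out 1 pseudogene row with 5 counts in all. Of the 69 genes, 56 belong by symbol to the Hist1 cluster on chromosome 13, 10 to Hist2 on chromosome 3, 2 to Hist3 on chromosome 11 and 1 to Hist4 on chromosome 6. By product there were 6 linker histone H1 genes, 20 H2A, 18 H2B, 12 H3 and 13 H4 genes. GENCODE M21 annotates 67 of them as protein-coding, while Hist1h2aj and Hist1h2al, both H2A-like, are pseudogenes.

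The RNA came from livers of FVB/NCrl mice that received no DPhP (CTRL) or DPhP at 0.1 mg/L (C1), 1 mg/L (C2) or 10 mg/L (C3); DPhP is read here as diphenyl phosphate, an aryl phosphate ester known as a metabolite of organophosphate flame retardants. No group carried a transgene or other allele according to the labels, and the route of exposure, sex and age were not given in the sources used here. Livers of a group were combined into 1 pool, and its 4 libraries are analytical replicates, so p-values measure technical spread and the pool and the concentration cannot be told apart. RNA was selected for poly(A) before the libraries were made.

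Each nucleosome wraps DNA around H2A, H2B, H3 and H4, and H1 binds the linker DNA between nucleosomes. Most clustered histone genes lack introns and are transcribed chiefly in S phase, when new chromatin needs histones. Their mRNAs normally end in a conserved 3′ stem-loop, bound by the stem-loop binding protein SLBP, in place of a poly(A) tail. Replacement histones are encoded outside the clusters, and most of their mRNAs carry poly(A) tails. Adult liver contains few dividing cells, and some clustered genes are also known to produce polyadenylated transcripts in cells that have left the cell cycle. A poly(A)-selected library therefore reads this gene family through tailed transcripts and through whatever tail-less RNA is carried over.

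The stem-loop is the feature that sets the family's usual transcript end apart, so the versions found are printed here as DNA letters of the GENCODE M21 transcripts, 5′ to 3′, with the paired stem bases in capitals. The search took 16 bases from GG to CC with a 6-base stem, allowing G-T pairs, and a loop that starts TT or CT. The first version was found in 26 genes (3 H1, 10 H2A, 8 H2B and 5 H3), the second in 7 H4 genes and the third in 6 genes (1 H1, 2 H2B and 3 H3). The fourth was found in Hist1h4i and Hist2h4, the fifth in Hist1h4j and Hist1h4b, and the sixth in Hist2h2ac.
Version 1: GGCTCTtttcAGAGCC
Version 2: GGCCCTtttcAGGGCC
Version 3: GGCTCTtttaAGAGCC
Version 4: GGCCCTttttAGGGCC
Version 5: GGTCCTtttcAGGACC
Version 6: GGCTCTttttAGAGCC
A match was found in 44 of the 67 coding members, between 21 and 58 bases after the stop codon. Within the first 75 bases after the stop codon it was present in 37 of the 43 members with that much annotated sequence (86.0%) and in 23 of 20234 other genes (0.114%), among them H2afx, which encodes the replacement histone H2A.X. Of the members without a match, 15 have fewer than 20 annotated bases after the stop codon and 8 have 20 or more. These 8 include Hist1h2bc, Hist1h2bq and Hist1h2br, H2B genes that were chosen for mention after their values were seen.

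Beyond the loop, 22 of the 44 members are annotated with over 100 further bases of transcript and 22 with 100 or fewer. Hist1h1d, an H1 gene, is annotated with 4884 bases after the loop. The distance is 840 bases in Hist1h1c and 770 in Hist1h4d, against 35 in the H2A pair Hist2h2aa1 and Hist2h2aa2. Members with over 100 bases after the loop held 28.8% of the summed level of the family, and those with 100 or fewer held 28.3%. The 5 coding members without a match and with 100 or more annotated bases after the stop codon held 35.8%, most of it from Hist1h2bc. Per kilobase of exon, the median level was 0.541 CPM in the members with the long annotated end and 1.74 CPM in those with the short one, with a range from under 0.1 to over 10 in both. Annotated length enters that measure directly, so the order of the medians carries the annotation as well as the RNA.

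**Figure D1:**
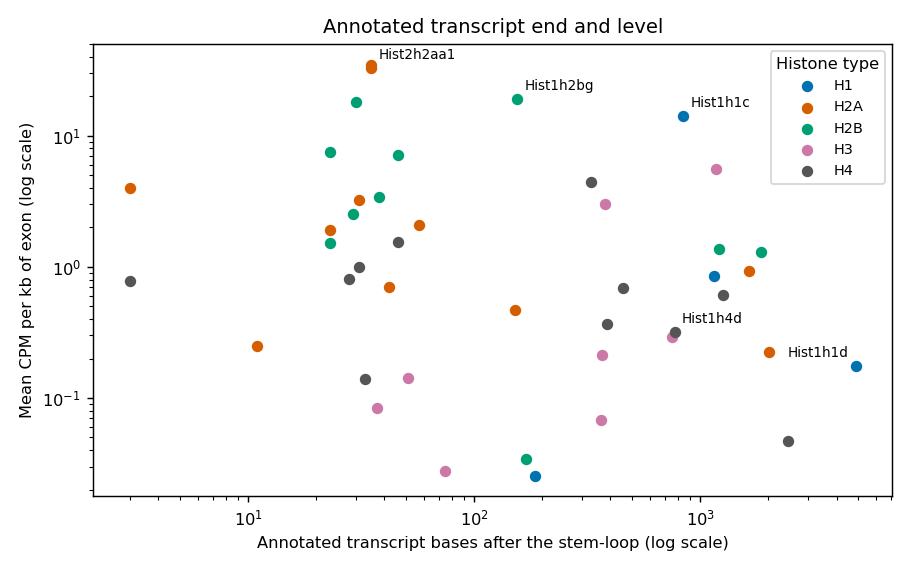
Each point is 1 of the 44 clustered histone genes with a stem-loop match; the x axis gives the annotated transcript bases after the loop and the y axis the mean level over 16 libraries in CPM per kilobase of exon, both on log scales, with colour for histone type. Hist1h1d lies furthest to the right at 4884 bases, and high and low levels occur at short and at long annotated ends.

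The counts supported only some members. At least 10 counts over the 16 libraries were reached by 65 genes, namely 5 of 6 H1, 19 of 20 H2A, 17 of 18 H2B, 11 of 12 H3 and all 13 H4 genes. The 4 genes below that were Hist1h1t, a testis H1 gene, with 9 counts, Hist3h2ba with 8, Hist1h3c with 7 and Hist1h2aa with 2. The edgeR filter on low counts kept 41 members for testing (3 H1, 12 H2A, 16 H2B, 4 H3 and 6 H4) and left out 28, of which 24 had 10 or more counts. A member could pass through a single group in which it was high, so the 41 are not the whole family. No count was seen in CTRL for Hist1h1b, Hist1h1t, Hist1h2aa, Hist1h4f and Hist2h2ab. A count of 0 over the 4 CTRL libraries allows a level of up to 0.0275 CPM (3 counts over the group, counting error only, and higher where 1 fragment gives 2 counts), and the corresponding limits were 0.0364 in C1, 0.0262 in C2 and 0.0309 in C3.

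H2B transcripts made up most of what was read. Summed over members and averaged over libraries, H2B held 55.8% of the CPM of the family, H2A 23.5%, H1 10.7%, H3 6.46% and H4 3.50%. CPM here is the count in each library divided by its TMM-scaled library size, on the usual CPM scale. Because core histones enter the nucleosome in equal numbers, these unequal shares are given as a description of the poly(A)-selected reads and not of protein. The highest member on both scales was Hist1h2bc, an H2B gene with 2 annotated exons at chr13:23684199-23692908 (GRCm38, plus strand), at 62.8 CPM and 54.4 CPM per kilobase of exon. Per kilobase it was followed by Hist2h2aa2 (34.9) and Hist2h2aa1 (32.8), the H2B gene Hist1h2bg (19.0), Hist1h2al (18.9) and Hist1h1c (14.04), with Hist1h2bk, named after its value was seen, at 18.2. The leading H3 gene was Hist2h3c1 at 5.54 CPM per kilobase, and the leading H4 gene Hist1h4i at 4.44. Hist1h1d stood at 0.175 CPM per kilobase, which divides 1.30 CPM by an exon of 7425 bases. The lowest member was Hist1h2aa at 0.00841 CPM per kilobase.

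**Figure D2:**
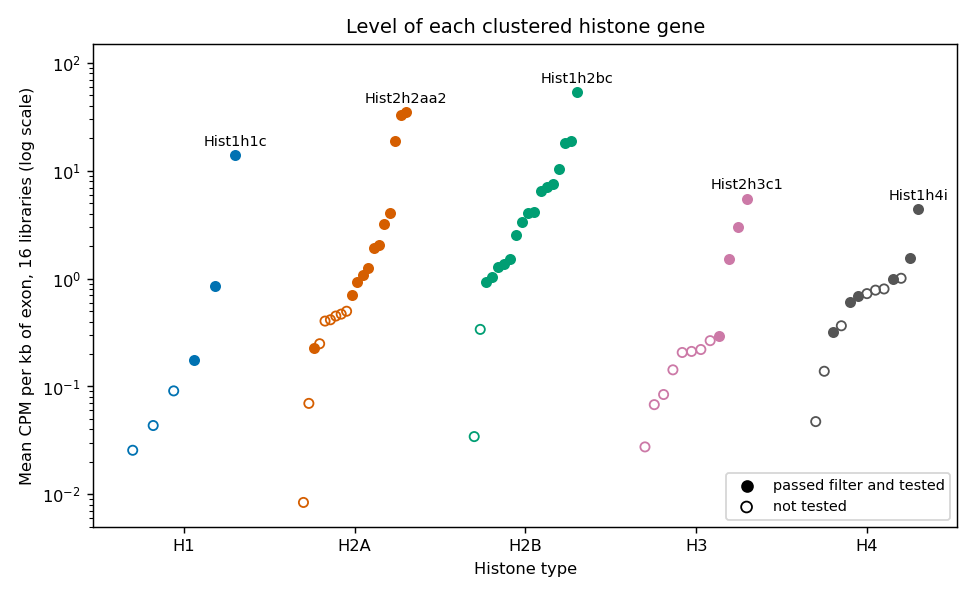
Each point is 1 of the 69 clustered histone genes, grouped by histone type on the x axis, with its mean level over 16 libraries on a log y axis in CPM per kilobase of exon. Filled points passed the filter and were tested; the highest member of each type is named, and Hist1h2bc stands highest at 54.4.

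Close copies limit what a single symbol means here. A share of over 50% of their 75-base transcript words was also found in other genes for 29 of the 69 members, the median share was 42.4%, and 6 members shared none. Hist2h2aa1 (chr3:96245497-96246082, plus strand) and Hist2h2aa2 (chr3:96239749-96240276, minus strand) have identical coding sequences, as have Hist1h2bq and Hist1h2br, Hist1h2ao and Hist1h2ap, and Hist1h4m and Hist1h4n. The stretch of coding bases 301 to 375 shows how little separates the called H2A pair from its neighbour Hist2h2ac, with bases that differ from Hist2h2aa1 in capitals, followed by coding bases 1 to 75 of Hist2h3b and Hist2h3c2, which differ at 1 base.
Hist2h2aa1: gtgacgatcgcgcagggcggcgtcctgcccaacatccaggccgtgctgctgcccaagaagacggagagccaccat
Hist2h2aa2: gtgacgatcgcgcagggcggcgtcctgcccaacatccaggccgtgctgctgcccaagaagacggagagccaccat
Hist2h2ac: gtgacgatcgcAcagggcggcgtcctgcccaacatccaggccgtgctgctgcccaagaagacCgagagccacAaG
Hist2h3b: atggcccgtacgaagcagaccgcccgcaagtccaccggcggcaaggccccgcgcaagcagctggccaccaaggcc
Hist2h3c2: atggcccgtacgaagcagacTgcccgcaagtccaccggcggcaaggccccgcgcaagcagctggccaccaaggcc
The deposited counts followed these copies: Hist2h2aa1 had 7477 counts in all and Hist2h2aa2 7182, and their ratio in a library lay between 1.00 and 1.07 in all 16 libraries. They are treated below as 1 observation that carries both symbols. Hist1h2bq and Hist1h2br had ratios between 0.849 and 0.931. By contrast Hist1h1d shared 1.5% of its 75-base words with other genes, Hist1h4d 3.7% and Hist1h1c 6.7%.

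Overlapping annotation is a second limit. The span of 26 members overlaps another annotated gene, on the opposite strand in 23. Gm20632, annotated antisense to Hist2h2aa2, received 8213 counts, and in each library it had between 1.09 and 1.21 times the counts of Hist2h2aa2. Gm20633, antisense to Hist2h2aa1, received 7954 counts, at 1.04 to 1.10 times those of Hist2h2aa1. Gm44341, annotated as a miRNA opposite to Hist1h2al, had between 0.346 and 0.493 times the counts of Hist1h2al. Gm20628, annotated antisense to Hist2h3b and also to Hist2h2bb, received 393 counts against 291 of Hist2h3b, at 1 to 4 times in each library. The strand setting of the counting was not given in the sources used here, so reads of these genes and of their antisense partners cannot be told apart. On the same strand, the processed transcript Gm20634 (11926 counts) overlaps Hist2h2aa1 from base 96245554 to 96246082 and the whole annotated span of Hist2h3c1. A strand setting would not separate these reads. Hist2h3c1 also shared 100% of its 75-base words with other genes. Hist1h1d, Hist1h1c, Hist1h4d and Hist1h2bc overlap no other annotated gene. Low counts of members were also even numbers more often than those of other genes: 69.6% of 645 member counts between 1 and 49 were even, against 55.1% of 183621 counts of other genes, and the counts of Hist1h1d were even in all 16 libraries. How 1 read pair was counted was not given in the sources used here, so for such members a step of 2 counts may stand for 1 fragment.

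A set of 3 libraries stood apart before any gene was tested. The mean log2 CPM of 4 nuclear-retained RNAs (Malat1, Neat1, Xist and Kcnq1ot1) was 10.15 in C2-3, 10.07 in C2-4 and 9.97 in C3-4, against at most 9.39 in the other 13. Ribosomal-locus transcripts took 15.2% of the counts in C2-4 and between 0.667% and 6.37% in the others, and small RNAs that lack a poly(A) tail summed to 7978 CPM in C2-4 against 265.5 to 2969 CPM elsewhere. Library totals ran from 14434761 to 45109243 counts. Hepatocyte markers were high throughout, with a summed level of 30700 to 82960 CPM.

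C2-4 also held the highest value of more members than any other library. Of the 69 members, 22 had their highest CPM of all 16 libraries there, including 11 of the 13 H4 genes but 1 of the 18 H2B genes. The library with the next most maxima, C3-3, held 10. The share of all genes that peaked in C2-4 was not counted, so these numbers only describe the members. The H4 genes are not separate observations, since they share sequence and Hist1h4m and Hist1h4n have identical coding sequences. The summed H4 level was 23.6 CPM in C2-4 and between 5.25 and 10.1 CPM in the other 15 libraries. The H1 gene Hist1h1e stood at 5.44 CPM in C2-4 and at most 2.05 CPM elsewhere. The summed H2B level was lowest in the same 3 libraries, at 78.1 CPM in C2-3, 82.5 CPM in C3-4 and 94.0 CPM in C2-4, against 115.6 to 157.9 CPM in the others. Values without these 3 libraries are given below beside the members whose calls they change and beside the called members. The group sums and the comparison lists are given with all libraries. Calls rose over all genes too once these 3 libraries were left out. Of 18468 genes tested, 2349 were then higher and 2828 lower in C2 against CTRL, compared with 1430 and 1824 of 17810 with all libraries. In C1 against CTRL they were then 1204 and 1484, and in C3 against C2 1447 and 1198.

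**Figure D3:**
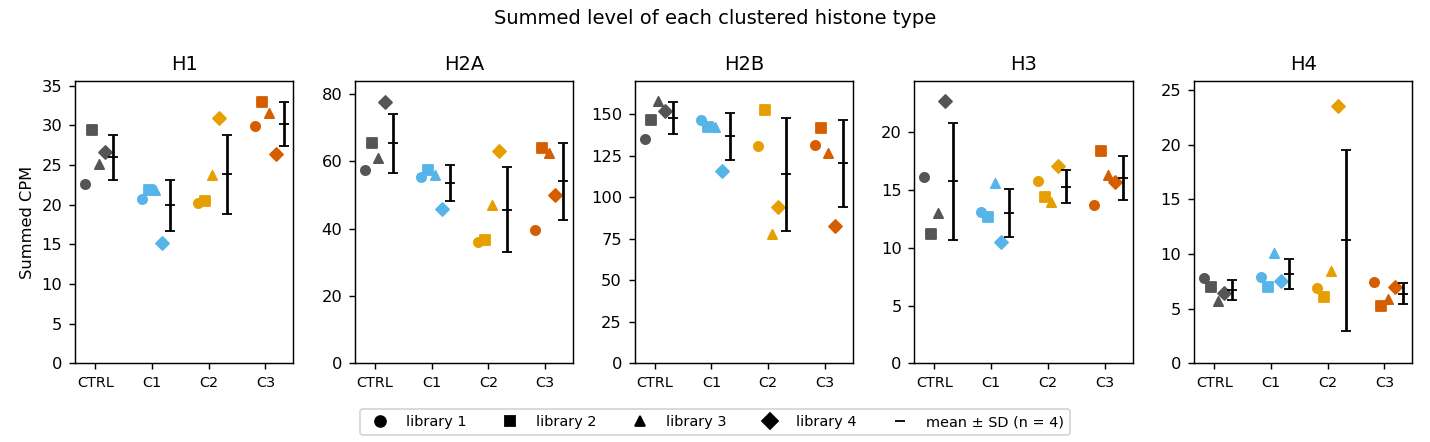
Summed CPM of all members of each histone type (y axes, from 0) in the 4 libraries of each group, with a symbol per library number and the mean ± SD (n = 4) beside them. The H4 panel has C2-4 at 23.6 above all others, and the H2B panel has C2-3, C2-4 and C3-4 lowest.

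Over the whole family the summed level in CTRL, C1, C2 and C3 was 261.6 ± 19.0, 231.2 ± 24.5, 209.9 ± 27.5 and 227.1 ± 34.5 CPM (SD, n = 4). The C2 libraries, at 171.2 to 230.3 CPM, all lay below the CTRL libraries at 238.8 to 285.1, while C1 and C3 overlapped CTRL. Most of this sum is the few highest genes, and no test was made on it. In bulk RNA, fewer cells of a type and less RNA per cell cannot be told apart. In the same order, H1 sums were 25.9 ± 2.87, 19.9 ± 3.18, 23.8 ± 5.001 and 30.2 ± 2.80 CPM. H2A sums were 65.3 ± 8.77, 53.5 ± 5.28, 45.6 ± 12.6 and 54.0 ± 11.4 CPM. H2B sums were 147.8 ± 9.78, 136.6 ± 14.1, 113.9 ± 34.0 and 120.5 ± 26.1 CPM. H3 sums were 15.76 ± 5.04, 12.99 ± 2.07, 15.3 ± 1.435 and 16.04 ± 1.92 CPM. H4 sums were 6.73 ± 0.897, 8.15 ± 1.36, 11.25 ± 8.26 and 6.385 ± 0.995 CPM, with C2-4 at 23.6 CPM.

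Against CTRL, calls among the 41 tested members were few at 0.1 and 10 mg/L and not more frequent than among all genes at 1 mg/L. In C2, edgeR's quasi-likelihood test (Benjamini-Hochberg adjusted p under 0.05 over 17810 genes) called 6 members (7 by DESeq2), 2 higher and 4 lower, which is 14.6% of those tested against 18.3% of all genes. For direction, the background was 8.03% of all genes higher and 10.2% lower. In C3 it called 1 member (2.44%), higher, against 1.4% of all genes, with 0.522% higher and 0.876% lower. In C1 it called 0 against 2.32% of all genes (0.938% higher and 1.39% lower), with 5 members at an unadjusted p under 0.05 and 1 called by DESeq2. Libraries of the groups did not overlap for 6 members in C1 (18.2% of all genes), 5 in C2 (20.7%) and 2 in C3 (12.8%). All 3 comparisons share the CTRL libraries. How many of all genes had an unadjusted p under 0.05 was not counted. Numbers at that cut, here and below, therefore only describe the members and lists.

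The linker histone gene Hist1h1d held the most repeated change. H1.3, its product, is one of the somatic H1 variants. Libraries 1 to 4 of CTRL read 0.480, 0.952, 0.623 and 0.727 CPM, and those of C1 0.993, 0.900, 0.450 and 0.759 CPM. The values were 1.46, 1.68, 1.69 and 3.22 CPM for C2, then 1.65, 1.53, 1.69 and 2.05 CPM for C3. Every C2 and C3 library lay above every CTRL and C1 library. Hist1h1d rose 2.80-fold in C2 against CTRL (log2 fold change 1.49 ± 0.29 SE, adjusted p = 0.002439, edgeR) and 2.47-fold in C3 (1.31 ± 0.29, adjusted p = 0.03163). It was also higher in C2 than in C1 (1.29 ± 0.30, adjusted p = 0.02817). The difference between C3 and C1 was 1.11 ± 0.30 with an adjusted p of 0.1211 by edgeR and 0.03456 by DESeq2, and that between C3 and C2 was -0.18 ± 0.27 (adjusted p = 0.8579, edgeR).

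Its level rests on 518 counts over all libraries, so each value comes from few fragments. Without C2-3, C2-4 and C3-4 the rise was 1.18 ± 0.29 in C2 (adjusted p = 0.003816, edgeR) and 1.21 ± 0.28 in C3 (0.00909), so both calls held with the libraries that stood apart removed. C2 against C1 then gave 0.97 ± 0.30 (0.02434), and C3 against C1 passed as well, at 1.01 ± 0.28 (0.0486). The call in C3 was lost when any of CTRL-1, CTRL-3, CTRL-4, C3-1, C3-3 or C3-4 was left out, with log2 fold changes of 1.17 to 1.33. The call between C2 and C1 was lost without any single C1 library, without C2-4 and when only the 2 groups were fitted. GENCODE annotates Hist1h1d as a single exon at chr13:23553262-23560686 (plus strand), whereas RefSeq places its start at position 23555032, so counts over the GENCODE span include sequence outside the RefSeq start.

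Hist1h1c, which encodes H1.2 and was by far the highest H1 gene, had a different order over the groups. The CTRL libraries read 20.4, 27.2, 23.3 and 24.5 CPM and the C1 libraries 17.7, 19.9, 19.7 and 12.8 CPM. The C2 libraries read 17.2, 18.02, 20 and 21.6 CPM and the C3 libraries 27.3, 29.8, 28.9 and 22.3 CPM. All C3 libraries lay above all C1 and C2 libraries, and all C1 libraries lay below all CTRL libraries. The gene was 1.55-fold higher in C3 than in C1 (0.63 ± 0.14, adjusted p = 0.03845, edgeR), the 1 member called in that comparison against 0.87% of all genes. In C1 against CTRL the difference was -0.45 ± 0.14, with an adjusted p of 0.112 by edgeR and 0.04066 by DESeq2. Without C2-3, C2-4 and C3-4 it passed in C1 against CTRL (-0.46 ± 0.11, adjusted p = 0.005628, edgeR), in C2 against CTRL (-0.42 ± 0.13, 0.01785) and in C3 against C2 (0.68 ± 0.14, 0.001909). The call between C3 and C1 held without those 3 libraries, at 0.72 ± 0.12 (adjusted p = 0.000433, edgeR). It was lost in 7 of the 16 fits that each left out 1 library. Hist1h1e, encoding H1.4, averaged 1.39 ± 0.26, 1.57 ± 0.37, 2.30 ± 2.13 and 1.30 ± 0.52 CPM from CTRL to C3 and passed in no comparison. It overlaps Hist1h2be on the same strand.

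**Figure D4:**
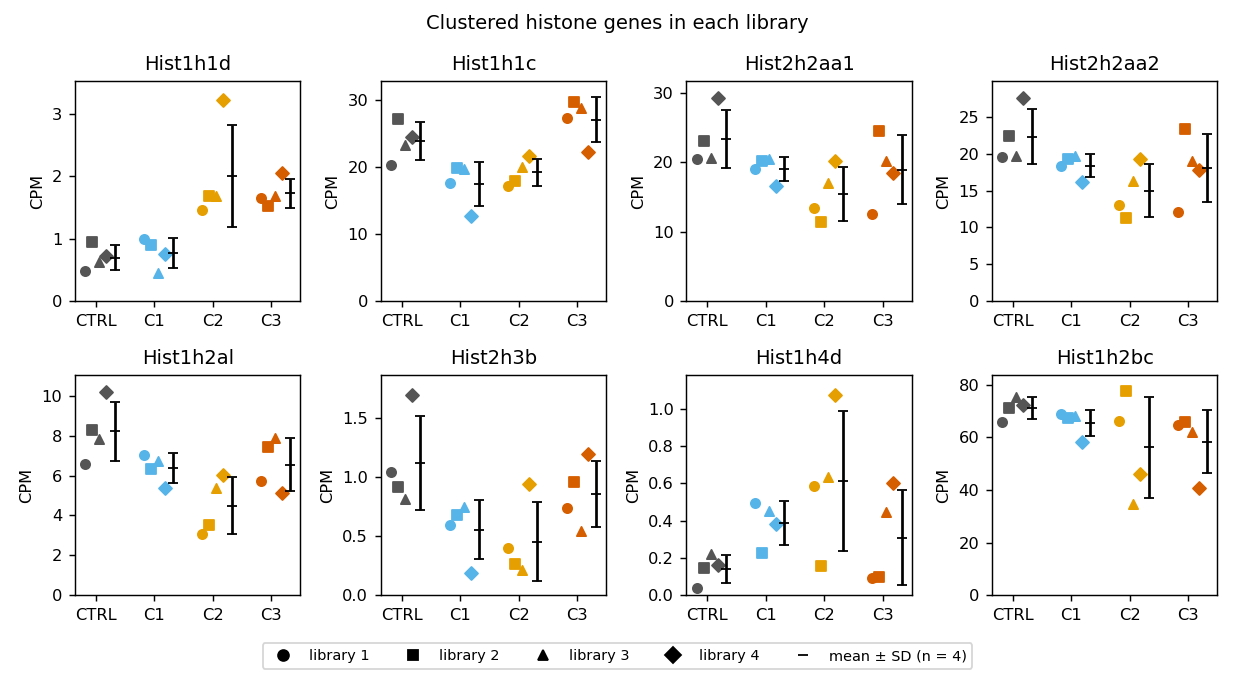
CPM (y axes, from 0) of the 7 members called in any comparison and of Hist1h2bc, the highest member, in the 4 libraries of each group, with the mean ± SD (n = 4). Hist1h1d has all C2 and C3 libraries above all CTRL and C1 libraries, while Hist1h1c is highest in C3 and lowest in C1.

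Among H2A genes, 3 of 12 tested members fell in C2 against CTRL and none was called higher. They cannot be counted as 3 separate observations, since Hist2h2aa1 and Hist2h2aa2 are copies and Hist1h2al shares sequence with both. Hist2h2aa1 read 20.5, 23.1, 20.6 and 29.3 CPM in CTRL and 13.4, 11.4, 17.1 and 20.1 CPM in C2, so the groups did not overlap. It stood at 19.1 ± 1.75 CPM in C1 and 18.9 ± 4.99 in C3. The fall in C2 was 0.61 on the log2 scale for Hist2h2aa1 (-0.61 ± 0.19, adjusted p = 0.03737, edgeR) and -0.59 ± 0.19 for Hist2h2aa2 (adjusted p = 0.03694). Both calls were lost under upper-quartile scaling, with protein-coding genes alone and when only the 2 groups were fitted, and without CTRL-2, CTRL-4, C2-1 or C2-2. Without the 3 libraries that stood apart, the changes were -0.90 ± 0.21 (adjusted p = 0.00575, edgeR) and -0.86 ± 0.20 (0.004942). Their antisense partners received as many counts, as described above.

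Hist1h2al, annotated as a processed pseudogene at chr13:51202727-51203065 (minus strand), away from the main Hist1 cluster, was lower in C2 in the same way. The CTRL libraries read 6.60, 8.27, 7.82 and 10.2 CPM, and those of C1 read 7.05, 6.36, 6.74 and 5.36 CPM. For C2 the values were 3.05, 3.52, 5.38 and 6.04 CPM, and for C3 5.74, 7.44, 7.88 and 5.14 CPM. All C2 libraries lay below all CTRL libraries, with C2-1 and C2-2 lowest of the 16. The change in C2 was -0.91 ± 0.21 (adjusted p = 0.006704, edgeR), and it passed in each of the 16 fits that left out 1 library. Without the 3 libraries that stood apart it was -1.31 ± 0.18 (adjusted p = 6.965e-06, edgeR), and C2 then also lay below C1 (-0.94 ± 0.18, 0.0008487) and C3 above C2 (1.06 ± 0.19, 0.000516). Of its 75-base words, 45.7% occur in other genes, namely Hist2h2aa1, Hist2h2aa2, Hist2h2ab, Hist2h2ac and Gm20634, the transcript that overlaps Hist2h2aa1 on chromosome 3. Reads of the called pair may therefore be among its counts, and its fall is not shown to be separate from theirs. Across the 12 H2A genes the median log2 fold change against CTRL was -0.29, -0.47 and -0.21 from C1 to C3, against 0.01, 0.03 and 0.00 over all genes tested. Without the 3 libraries the C2 median was -0.71 over 14 tested H2A genes. Hist2h2ac, an H2A gene in the Hist2 cluster, was then also called lower in C2 (-1.0 ± 0.37, adjusted p = 0.04393, edgeR).

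H2B genes gave no call in any of the 3 comparisons with CTRL by edgeR or by DESeq2 with all libraries. Without C2-2, the highest of the C2 libraries in summed H2B, edgeR called 4 of them lower in C2, namely Hist1h2bc, Hist1h2bk and the copies Hist1h2bq and Hist1h2br. Over all 18100 genes tested, that fit called 2267 higher and 2225 lower in C2 against CTRL. With all libraries, 15 of 16 H2B genes had log2 fold changes below 0 in C2 (median -0.37), with 4 at an unadjusted p under 0.05. The corresponding numbers were 11 of 16 in C1 (median -0.09, 1 at p under 0.05) and 13 of 16 in C3 (median -0.31, 2 at p under 0.05). The C2 median was -0.07, with 11 of 16 below 0, once C2-3, C2-4 and C3-4 were left out. Hist1h2bc read 65.8, 71.1, 75.5 and 72.4 CPM in the CTRL libraries and 68.8, 67.3, 68.0 and 58.1 CPM in those of C1. It read 66.3, 77.7, 34.6 and 46.2 CPM in those of C2 and 64.9, 66.0, 61.9 and 40.7 CPM in those of C3. The low values were those of C2-3, C2-4 and C3-4, and the other libraries of these groups lay near CTRL. Its change in C2 was -0.34 ± 0.20 (adjusted p = 0.234, edgeR) with all libraries and 0.03 ± 0.09 (0.8478) without those 3. Hist1h2bg showed the same libraries low, at 6.39 CPM in C2-3, 7.45 in C2-4 and 6.76 in C3-4 against 10.45 to 14.8 CPM in the other 13.

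With all libraries, the 4 tested H3 genes had no common direction in C2 or C3, with 2 above and 2 below 0 in each. Without C2-3, C2-4 and C3-4, 1 lay above 0 and 3 below in C2, with a median of -0.84 against -0.36 with all libraries. Hist2h3b (chr3:96268654-96269141, plus strand) was the 1 H3 gene called, in C2 against CTRL, at -1.39 ± 0.44 (adjusted p = 0.03834, edgeR). Its CPM was 1.04, 0.915, 0.810 and 1.70 in CTRL and 0.399, 0.262, 0.211 and 0.940 in C2, so C2-4 overlapped the CTRL libraries. Without C2-3, C2-4 and C3-4 the change was -1.70 ± 0.45 (adjusted p = 0.005734, edgeR), and the call was lost without any of CTRL-1, CTRL-2, CTRL-4, C2-1, C2-2 or C2-3. Its antisense partner Gm20628 had 1 to 4 times its counts in each library, and Hist2h3b shared 78.5% of its 75-base words with other genes. Its near-copy Hist2h3c2, with 99.8% coding identity, read 3.93 ± 1.63 CPM in CTRL and 2.36 ± 1.02 in C2, a difference of -0.76 ± 0.29 that missed the threshold (adjusted p = 0.07553, edgeR). Without C2-3, C2-4 and C3-4 it passed, at -0.91 ± 0.29 (adjusted p = 0.02338, edgeR), and it was also called without CTRL-2 alone and without C2-4 alone. Hist2h3c1, the highest H3 gene, averaged 9.74 ± 3.04, 9.08 ± 1.29, 11.3 ± 1.20 and 10.3 ± 1.77 CPM from CTRL to C3. In C1, all 4 H3 genes had log2 fold changes below 0 (median -0.83), with 3 at an unadjusted p under 0.05 and 0 called by edgeR or DESeq2. The widest of these was Hist1h3d, named after its value was seen, at -1.57 ± 0.54 in C1 (adjusted p = 0.1488, edgeR). Between C3 and C1 it differed by 2.14 ± 0.52 (adjusted p = 0.06883, edgeR; 0.03511, DESeq2), and without C2-3, C2-4 and C3-4 by 2.07 ± 0.56 (adjusted p = 0.03743, edgeR).

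Most tested H4 genes lay above CTRL in C1 and C2, opposite in sign to most H2A and H2B genes. In C1, 4 of 6 had log2 fold changes above 0 (median 0.74) with 0 called by edgeR or DESeq2 and 0 at an unadjusted p under 0.05. In C3, 3 of 6 were above 0 (median 0.22). In C2, all 6 tested H4 genes had log2 fold changes above 0 against CTRL (median 0.96), 3 at an unadjusted p under 0.05 and 1 called by edgeR. That gene, Hist1h4d (chr13:23581598-23582735, plus strand), read 0.0400, 0.146, 0.218 and 0.162 CPM in the CTRL libraries and 0.496, 0.225, 0.450 and 0.379 CPM in those of C1. The C2 libraries had 0.587, 0.157, 0.633 and 1.07 CPM, and the C3 libraries 0.0917, 0.0954, 0.446 and 0.599 CPM. All C1 libraries lay above all CTRL libraries (1.41 ± 0.68, adjusted p = 0.3217, edgeR). C2-2 lay within the CTRL range, and the spread within C2 and C3 exceeded that within CTRL and C1. The change in C2 was 1.95 ± 0.65 (adjusted p = 0.04454, edgeR) on 136 counts over all libraries. The call was lost in 12 of 16 fits that left out 1 library, and without C2-3, C2-4 and C3-4 the value was 1.36 ± 0.67 (adjusted p = 0.1331, edgeR). DESeq2 also called Hist1h4n in C2 (adjusted p = 0.02564; 0.06957 by edgeR).

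In C2 the common sign of the H4 genes was not seen once the libraries that stood apart were removed. Without C2-3, C2-4 and C3-4, 9 H4 genes could be tested, 5 were above 0 and 4 below in C2 against CTRL, and their median was 0.01. In C1, which holds none of these libraries, 6 of the 9 were above 0 with a median of 0.40. The highest H4 gene, Hist1h4i, averaged 3.26 ± 0.57, 3.21 ± 0.61, 3.31 ± 0.87 and 3.14 ± 0.68 CPM from CTRL to C3, and its log2 fold changes lay between -0.06 and 0.05 with an SE of 0.21 in all 6 comparisons. Hist2h4 read 0.695 ± 0.285 CPM in CTRL and 1.24 ± 0.50, 1.09 ± 0.67 and 0.979 ± 0.430 in C1, C2 and C3.

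**Figure D5:**
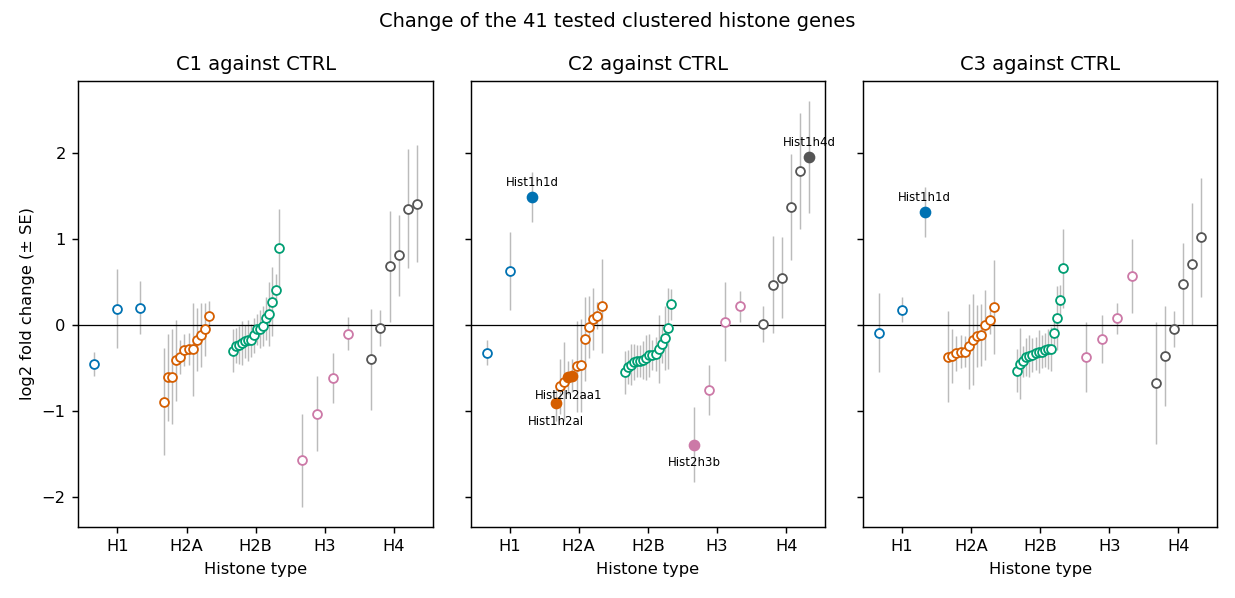
Log2 fold change ± SE (y axis) of the 41 tested members against CTRL in C1, C2 and C3, grouped by histone type on the x axis and ordered by value within a type. Filled points were called by edgeR; in C2, 15 of 16 H2B genes lie below 0 and all 6 H4 genes above.

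Between treated groups, the members gave 1 call in C2 against C1 (Hist1h1d, higher; 2.06% of all genes called, 0.477% higher and 1.58% lower) and 1 in C3 against C1 (Hist1h1c, higher; 0.87% of all genes, 0.354% higher and 0.517% lower). They gave 0 in C3 against C2 (1.44% of all genes, 1.17% higher and 0.27% lower). In C3 against C2, 4 members had an unadjusted p under 0.05 in edgeR, and DESeq2 called 2, Hist1h1c higher and Hist1h4c lower. Groups did not overlap for 1 member in C2 against C1 (9.56% of all genes), 4 in C3 against C1 (7.96%) and 1 in C3 against C2 (5.62%). The median log2 fold change of the members against CTRL was -0.17, -0.32 and -0.25 from C1 to C3, and -0.19, -0.05 and 0.05 in C2 against C1, C3 against C1 and C3 against C2. Of the 41 members, 29 lay below 0 in C1, 27 in C2 and 28 in C3 against CTRL. Under upper-quartile scaling the C2 median was -0.24 with 25 below 0, and with protein-coding genes alone it was -0.23 with 26 below 0.

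Promoter windows from RefSeq (GRCm38.p6), running to 50 bases after the annotated start, were matched to 62 of the 69 members, with 63 windows in all. CCAAT, or ATTGG on the other strand, occurred in 54 windows (85.7%) against 37.3% of 32788 other promoters. It was present in every H1, H2A, H2B and H3 window but in 3 of 12 H4 windows (25.0%). TATAAA or TTTATA occurred in 55.6% of member windows and 13.5% of the others. AAACACA or TGTGTTT, a motif known from H1 promoters, was found in 5 of 6 H1 windows (83.3%), against 14.3% of all member windows and 7.2% of other promoters. The bases before the start of Hist1h1c (chr13:23738557-23738806, plus strand) and Hist1h4d (chr13:23581318-23581567, plus strand) are printed as the windows of 2 called members, with the matches in capitals. Hist1h4d is among the 3 H4 windows that hold a CCAAT match, unlike most H4 windows.
Hist1h1c: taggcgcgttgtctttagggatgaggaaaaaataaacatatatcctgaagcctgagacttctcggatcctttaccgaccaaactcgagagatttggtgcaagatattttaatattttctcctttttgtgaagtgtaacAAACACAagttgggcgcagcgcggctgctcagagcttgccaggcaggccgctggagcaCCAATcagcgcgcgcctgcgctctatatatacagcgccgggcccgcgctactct
Hist1h4d: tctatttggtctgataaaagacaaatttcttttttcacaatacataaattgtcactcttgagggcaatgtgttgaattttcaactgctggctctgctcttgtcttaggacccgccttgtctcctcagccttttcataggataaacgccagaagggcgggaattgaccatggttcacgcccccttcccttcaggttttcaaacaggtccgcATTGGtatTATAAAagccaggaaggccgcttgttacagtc
The Hist1h1d window held 3 matches to TATAAA, 1 to CCAAT and 1 to AAACACA on either strand. Such matches describe these letters in these windows and do not show that a factor bound there.

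Replacement histone genes, most of whose mRNAs have tails, gave few calls as well. For this and the following lists, the share of all genes called by edgeR against CTRL was 2.32% in C1, 18.3% in C2 and 1.4% in C3. Calls by DESeq2 stand against its own all-gene calls given above, in C2 2099 higher and 2089 lower of 17810. The 16 listed genes summed to 556 ± 10.1, 529.7 ± 27.7, 573.3 ± 39.4 and 588.6 ± 37.6 CPM from CTRL to C3. H2afb1, H1foo and Hils1, genes of the germ line, had no counts in any library. Of 12 tested, edgeR called 2 in C2, Cenpa higher (0.64 ± 0.18, adjusted p = 0.02242), which encodes the centromeric H3, and H2afy lower (-0.32 ± 0.09, 0.02365), which encodes macroH2A1. It called 0 in C1 (3 at an unadjusted p under 0.05, 1 by DESeq2) and 0 in C3 (1 and 1).

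In C2, where 10.2% of all genes were called lower, genes for histone mRNA 3′ end processing and decay gave 2 calls of 21 tested, both lower. These were Snrpb (-0.62 ± 0.15, adjusted p = 0.008349, edgeR), encoding a shared protein of snRNP cores, and Cpsf3 (-0.34 ± 0.09, 0.01437), encoding the endonuclease that cuts histone pre-mRNA. There were 0 calls in C1 (1 at an unadjusted p under 0.05, 0 by DESeq2) and 0 in C3 (2 and 1). Their summed level was 410.1 ± 25.3 CPM in CTRL and 389.2 ± 45.4 in C2. Histone chaperones gave 1 call of 17 in C2, Ssrp1, a subunit of the FACT complex, at -0.35 ± 0.12 (adjusted p = 0.04511, edgeR), and 0 in C1 (1 at an unadjusted p under 0.05, 0 by DESeq2) and C3 (2 and 0).

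Genes of DNA replication and the cell cycle also gave few calls against CTRL. Of 26 S-phase genes, edgeR called Tk1, thymidine kinase, higher in C2 (0.48 ± 0.12, adjusted p = 0.01365) and Mcm4, a subunit of the replicative helicase, lower in C3 (-0.71 ± 0.16, 0.02909), and 0 in C1 (5 at an unadjusted p under 0.05, 2 by DESeq2). Their summed level ran from 231.6 to 256.3 CPM for CTRL, from 274.6 to 292 for C1, from 257.7 to 271.3 for C2 and from 208.7 to 235.6 for C3. Tk1 weighs on this sum, at 64.7 CPM in CTRL and 90.4 CPM in C2, and the median log2 fold change of the list against CTRL was 0.15, -0.11 and -0.29 from C1 to C3. Against CTRL, 5 S-phase genes in C2 and 9 in C3 had an unadjusted p under 0.05 in edgeR, and DESeq2 called 2 and 3. Between C3 and C1 the median was -0.54, with 17 of 26 at an unadjusted p under 0.05, 0 called by edgeR and 3 by DESeq2. Of 17 tested G2 and mitosis genes, edgeR called Cks2 higher in C2 (0.51 ± 0.17, adjusted p = 0.04863) and 0 in C1 (2 at an unadjusted p under 0.05, 0 by DESeq2) and C3 (5 and 0). In C2 the median of this list was -0.27, opposite in sign to Cks2, with 6 at an unadjusted p under 0.05 and 3 called by DESeq2. Of 7 tested RNAs that lack a tail, Rmrp, Scarna2 and Scarna6 rose in C2, with all 7 at an unadjusted p under 0.05 and all 7 called by DESeq2. Their list ran from 277.3 to 1324 CPM for CTRL, from 678.7 to 2969 for C1, from 265.5 to 7978 for C2 and from 303.8 to 963.2 for C3. Kcnq1ot1, Malat1 and Neat1, of the 4 nuclear-retained RNAs, and Gm26917, of the 3 ribosomal-locus transcripts, were also called higher in C2.

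Marker lists of liver and blood cells also differed between C2 and CTRL, where 8.03% of all genes were called higher and 10.2% lower. Of 9 hepatocyte markers, 4 fell and 0 rose, and the list summed to 68740 to 82960 CPM in CTRL and 30700 to 75590 in C2. Of 5 tested erythroid markers, 3 fell (2115 to 2764 against 701.6 to 1784 CPM), and of 6 macrophage markers 2 fell (222 to 287.7 against 172.6 to 258.2 CPM). Of 6 sinusoidal endothelial markers, 5 rose (106.7 to 116 against 169.8 to 183.9 CPM), and of 5 tested B and plasma cell markers 3 rose and 1 fell (5.29 to 8.20 against 7.45 to 10.7 CPM). No T and NK cell marker of 8 was called by edgeR (1 at an unadjusted p under 0.05, 0 by DESeq2; 5.36 to 6.81 against 5.78 to 6.98 CPM), nor any of 2 tested neutrophil markers (0 and 0; 1.81 ± 0.36 against 2.35 ± 0.19 CPM). No listed cell type marker was at 0 in all libraries. Their part in the histone values was not tested.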

How the data were processed

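Poly(A)-selected RNA of 16 liver libraries was sequenced, 4 for each of 4 groups, per the labels' protocols. The submitters' processing notes name GRCm38 as the build, STAR 2.5.2b, FastQC 0.11.5 and bcl2fastq 2.19.1.403; the counting program, its strand setting and its handling of reads with several matches were not given in the sources used here. The deposited table holds raw counts per gene, whole numbers with no normalization. All 53372 genes entered 1 edgeR 4.0.16 model (R 4.3.3; filterByExpr, TMM, glmQLFit and glmQLFTest with robust fitting, group as the term, 12 residual degrees of freedom), which tested 17810 genes in 6 comparisons with Benjamini-Hochberg adjustment over all of them. CPM are TMM-scaled. DESeq2 1.42.0, other scalings and filters, a replicate block and left-out libraries were alternatives.

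The members and the 15 comparison lists were chosen with earlier results of these data known. Named members are those called in any comparison, the 6 with the highest CPM and the 2 with the highest CPM of each histone type; others are marked as chosen after their values were seen, apart from members named to account for counts, copies or stem-loops. All 69 members were matched to GENCODE M21 by identifier. Transcript sequence came from GENCODE M21 and promoter sequence from RefSeq.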

Additional observations from a re-analysis of the deposited data

Results flagged for a closer look

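In a group of 4 libraries, a value was listed where the highest or lowest library lay far from the other 3 by Dixon's criterion at the 95% level. This was so in 8 of 80 groups examined, and chance gives about 1 in 20. Of these, 3 were in libraries of C2 and C3 that stood apart in nuclear-retained RNA. Hist1h1d stood at 3.22 CPM in C2-4, against 1.46 to 1.69 in the other C2 libraries. The summed H4 level was 23.6 CPM in C2-4, against 6.06 to 8.44. Hist1h2bc stood at 40.7 CPM in C3-4, against 61.9 to 66.0.

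The other 5 lay in C1, and 4 of them in C1-4. There Hist1h2bc stood at 58.1 CPM against 67.3 to 68.8, the summed H2A level at 45.7 CPM against 55.4 to 57.2, the summed H2B level at 115.6 CPM against 142.3 to 146.3, and the sum of all clustered histones at 194.6 CPM against 241.2 to 245.6. These 4 values share their reads in part, since Hist1h2bc enters both the H2B sum and the total. Hist1h1e stood at 1.01 CPM in C1-2, against 1.71 to 1.82 in the other C1 libraries.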

How the results depend on the processing

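Counts of called members were 0 in C1, 6 in C2 and 1 in C3 against CTRL, 1 in C2 and 1 in C3 against C1, and 0 in C3 against C2. In C1 against CTRL the count was 1 (Hist1h1c, lower) with DESeq2, with only the 2 groups fitted and without C2-3, C2-4 and C3-4. Over all genes these settings called 366 higher and 558 lower of 17810, 1194 and 1363 of 16828, and 1204 and 1484 of 18468. In C2 against CTRL the member count was 3 with protein-coding genes alone, a setting that leaves out the pseudogene Hist1h2al. It was 2 with only the 2 groups fitted and 8 without those 3 libraries. Over all genes, these settings called 1023 higher and 1205 lower of 13526, 613 and 879 of 17069, and 2349 and 2828 of 18468. C2 against C1 gave 0 with only the 2 groups and 2 without the 3 libraries. All-gene calls there were 13 higher and 80 lower of 16344, and 1718 and 1741 of 18468. C3 against C1 gave 3 with DESeq2 and 3 without the 3 libraries, and C3 against C2 gave 2 and 2. Over all genes, C3 against C1 gave 142 higher and 147 lower of 17810 with DESeq2, and 310 and 320 of 18468 without the 3 libraries. For C3 against C2 the all-gene calls were 409 and 205, and 1447 and 1198. Leaving out 1 library at a time gave 0 in C1, 2 to 8 in C2 (8 without C2-2, of which 4 are H2B genes) and 0 to 1 in C3 against CTRL, 0 to 2 in C2 and 0 to 2 in C3 against C1, and 0 to 1 in C3 against C2; the cause of these differences was not tested. No called member changed sign under any alternative run. Hist1h1d and Hist1h2al in C2 against CTRL passed under every alternative that gave a value. With the replicate block, the counts were 0, 6 and 1 against CTRL and 1, 1 and 0 between treated groups, as without it. Libraries with the same number were not paired: correlations of their deviations ran from -0.342 to 0.601 over 24 pairs, 9 above 0.1, and 5 of 16 libraries correlated best with their own number. Upper-quartile scaling put the median of all genes at 0.103 in C2 against 0.029. Low counts limit Hist1h4d, Hist2h3b, Hist1h1d and the 28 untested members.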
